A study of Mus musculus with 4 samples.

Results

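The protocadherins are cadherin-family adhesion proteins of the neuronal surface, and 64 of their genes were measured among the 19150 genes present in both deposited count tables. They were taken as every protein-coding gene of both tables whose symbol begins with Pcdh, and they fall into 11 genes of the alpha cluster, 21 of the beta cluster and 20 of the gamma cluster, all on chromosome 18, and 12 genes outside the clusters. RNA was sequenced from embryonic mouse brain (E13.5, strain C57BL/6). The KO group comprised the libraries KO2 and KO4, labelled knockout in a series on deletion of the histone variant macroH2A, and the WT group comprised the wild-type libraries WT6 and WT8. The labels give neither the targeted exons nor the driver of the deletion, and they do not say whether the embryos shared a litter, so p-values reflect only how far these libraries scatter, part of which may be technical. The tables hold KO2 beside WT6 and KO4 beside WT8, called the deposited pairs here.

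In the clusters each variable exon has its own promoter and encodes the extracellular and transmembrane part of 1 isoform. In the alpha and gamma clusters the variable exon is spliced to constant exons that encode a shared cytoplasmic tail, whereas beta genes have none. Each neuron expresses its own combination of these isoforms, chosen with the help of CTCF and cohesin and of promoter DNA methylation, and isoforms on neighbouring membranes bind like with like, which is known for self-avoidance of dendrites and axons and for neuron survival. The nonclustered protocadherins, the delta-1 and delta-2 families above all, are expressed regionally and act in cell sorting, axon growth and synapse formation.

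Total reads in the tables lay between 16470090 and 18136745 per library. H2afy, which encodes macroH2A1, had 1368 and 1267 reads in KO2 and KO4, against 5538 and 5593 reads in WT6 and WT8. Its log2 fold change was -2.22, with an adjusted p of 0.00167 by edgeR's quasi-likelihood test, and it was no longer called without WT6 (adjusted p between 2.8e-72 and 0.314 over the alternatives), though the log2 fold change stayed between -2.29 and -2.16 whichever library was left out. Xist, transcribed from the inactive X chromosome, had 6 and 8105 reads in KO2 and KO4, against 19 and 6094 reads in WT6 and WT8. Kdm5d, on the Y chromosome, had 729 reads and 1 read in KO2 and KO4, against 624 reads and 1 read in WT6 and WT8. Thus KO2 and WT6 were male and KO4 and WT8 female by these transcripts, so that the sex of the embryo and the deposited pair cannot be told apart. The brain label was checked on neuronal markers. Tubb3, a neuronal tubulin, was at 3006 and 2787 CPM (reads scaled to a common library size) in KO2 and KO4, against 2836 and 3439 CPM in WT6 and WT8. Dcx, of migrating neurons, was at 747 and 773 CPM in the KO libraries, against 735 and 650 CPM in the WT libraries, so both were abundant in each library.

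The nonclustered genes carried most protocadherin reads, with a summed level of 313 and 342 CPM in KO2 and KO4, against 309 CPM in each of WT6 and WT8. The gamma cluster gave 65.9 and 89.8 CPM in the KO libraries, against 89.4 and 64.1 CPM in the WT libraries. The beta cluster gave 47.9 and 51.0 CPM in the KO libraries, against 48.4 and 46.6 CPM in the WT libraries. In the alpha cluster the sum was 3.93 and 7.03 CPM in the KO libraries, against 5.98 and 3.13 CPM in the WT libraries. Both KO libraries exceeded both WT libraries in the nonclustered sum by a small margin, whereas in the alpha and gamma sums 1 library of each genotype was high and the other low. These sums describe the libraries and were not tested, and in whole tissue fewer expressing cells and less RNA per cell cannot be told apart.

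**Figure D1:**
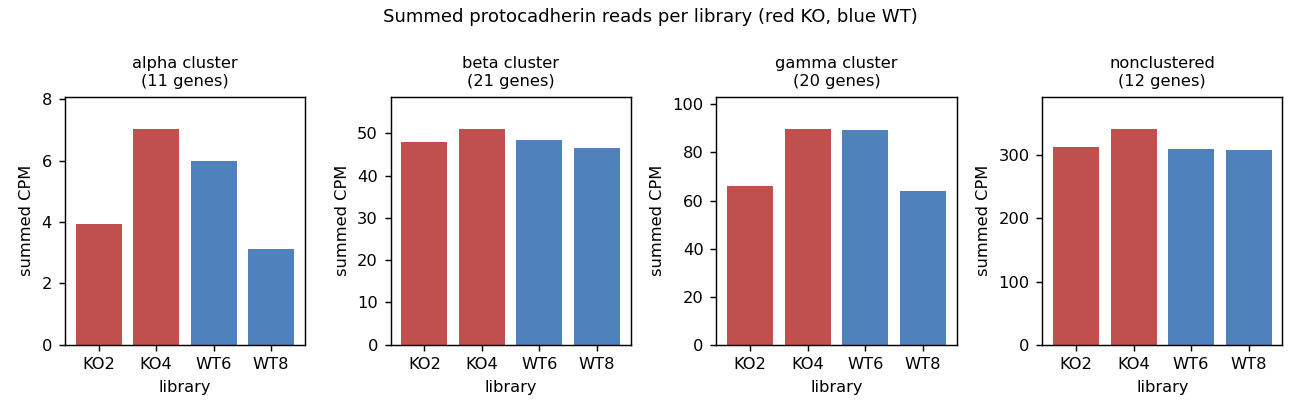
Summed CPM of the 11 alpha, 21 beta, 20 gamma and 12 nonclustered protocadherin genes in each library (bars start at 0; red, KO; blue, WT; each panel has its own scale). In the gamma panel KO4 and WT6 stand at 89.8 and 89.4 CPM, and KO2 and WT8 at 65.9 and 64.1 CPM.

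Per length, levels spread widely. Among nonclustered genes the mean over the 4 libraries ran from 10.4 CPM per kb of exon for Pcdh8 to 0.112 CPM per kb for Pcdh15, with a median of 2.19. The median per length was 0.518 CPM per kb in the gamma cluster, 0.389 in the beta cluster and 0.0706 in the alpha cluster. Pcdhgc3 is a C-type isoform that promotes dendrite branching in mouse cortex. Over all annotated exons it had the highest level per length of the clustered genes, at 3.42 CPM per kb. By this measure it was followed by Pcdhgb6 at 1.82 and the beta genes Pcdhb20 at 1.64 and Pcdhb7 at 1.63 CPM per kb.

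Cluster genes overlap in the annotation (GENCODE M21 on GRCm38), and this bears on their counts. The alpha genes lie within chr18:36930184-37187661, the beta genes within chr18:37294812-37524479 and the gamma genes within chr18:37661793-37841873, all on the plus strand. Between 48.6% and 64.9% of the exon bases of each of the 11 alpha genes, and between 31.5% and 73.6% of those of each of the 20 gamma genes, are shared with another gene, whereas 3 of 21 beta genes and 4 of 12 nonclustered genes share any. How the authors' counting treated reads in shared exons, and whether it used strand, is not given in the sources used. Single alpha and gamma values, and the sums and medians of these clusters, are uncertain to that extent. Divided by its own 1821 exon bases alone, Pcdhgc3 had 10.3 CPM per kb and moved from rank 6 to rank 2 of the 64 genes, an alternative chosen after seeing the data. By own bases Pcdhga11 had 3.53, Pcdhgb6 3.31 and Pcdhgb7 2.67 CPM per kb, all above Pcdhb20 at 1.64. The medians by own bases were 2.43 in the nonclustered genes, 0.966 in gamma, 0.415 in beta and 0.152 in alpha.

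The comparison of genotypes called no protocadherin. Of 54 members with enough reads to be tested (4 alpha, 18 beta, 20 gamma and 12 nonclustered), 0 were called higher in KO and 0 lower at an adjusted p under 0.05 by edgeR, where 0.0% of all 15708 tested genes were called higher and 0.00637%, H2afy alone, lower. DESeq2 also called 0 members, where it called 0.0104% of 19150 genes in each direction, and so did limma-voom, at the edgeR percentages. With the deposited pair as a block 0 members were called as well, where 0.0127% of tested genes were called lower. By edgeR 1 member had an unadjusted p under 0.05, where 4.7% of all tested genes had one. The log2 fold change had a median of 0.11 in the alpha cluster, 0.06 in the beta cluster, -0.07 in the gamma cluster and 0.06 in the nonclustered genes, beside -0.01 over all tested genes. The genotypes were separate with KO above WT for 11 of 54 members, beside 20.1% of all tested genes, and with KO below WT for 7, beside 19.4%. The smallest adjusted p of a member was 0.743 by edgeR.

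**Figure D2:**
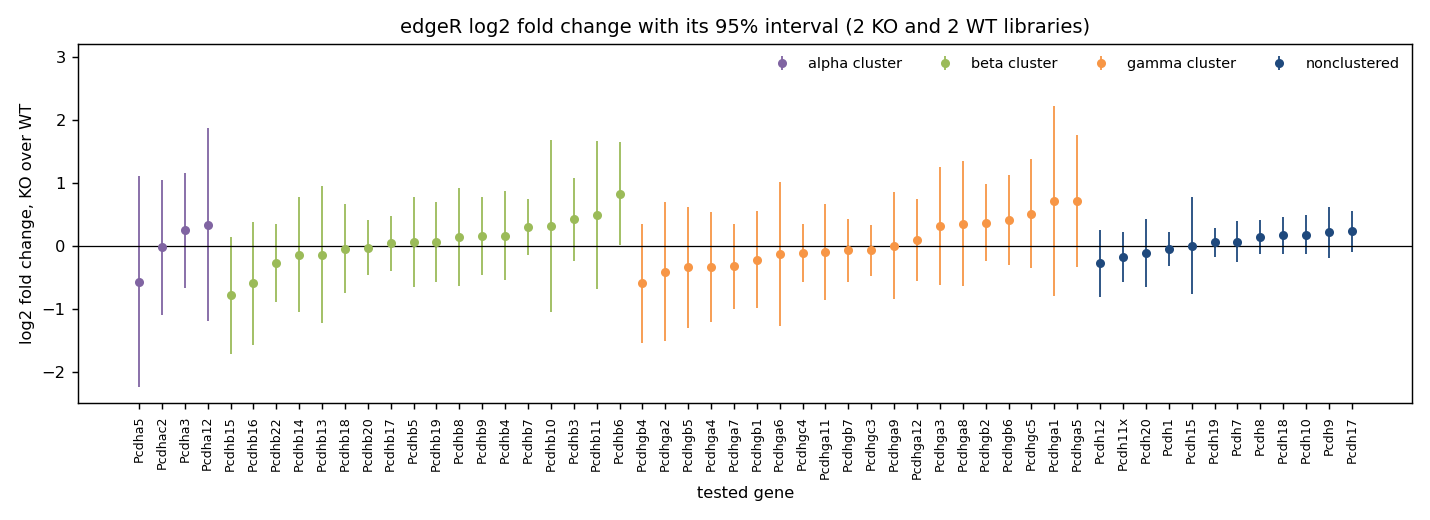
Log2 fold change, KO over WT, of each of the 54 tested protocadherin genes with its 95% interval from edgeR (2 KO and 2 WT libraries), coloured by group and sorted within it. The interval includes 0 for each gene except Pcdhb6, whose unadjusted p was 0.0492 and adjusted p 0.743.

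The delta-2 genes (Pcdh8, Pcdh10, Pcdh17, Pcdh18 and Pcdh19) each had a positive log2 fold change, between 0.05 and 0.23, and none was called. Pcdh10, which guides striatal and thalamic axons in mouse, had 1164 and 1513 reads in KO2 and KO4, against 1129 and 1017 reads in WT6 and WT8. KO4 was the high library, while KO2, at 63.5 CPM, lay below both WT libraries, at 65.6 and 63.6 CPM. Its log2 fold change was 0.18 ± 0.13 (SE; adjusted p = 0.748 by edgeR). Pcdh8, whose rat orthologue arcadlin is induced by neuronal activity and binds N-cadherin, had 841 and 966 reads in the KO libraries, against 826 and 665 reads in the WT libraries. Here too KO4 was highest and the genotypes overlapped in CPM, with a log2 fold change of 0.14 ± 0.11 (SE; adjusted p = 0.761 by edgeR). Pcdh17, which acts in axon extension in the mouse amygdala, had 300 and 282 reads in the KO libraries, against 226 and 223 reads in the WT libraries. Both KO libraries stood above both WT libraries, and the log2 fold change was 0.23 ± 0.14 (SE; adjusted p = 0.743 by edgeR). Pcdh18 had 440 and 461 reads in the KO libraries, against 394 and 335 in the WT libraries, also without overlap (log2 fold change 0.16 ± 0.12 SE; adjusted p = 0.748 by edgeR). Pcdh19, an X-linked gene whose human mutations cause epilepsy in females, had 684 and 742 reads in the KO libraries, against 637 and 608 in the WT libraries, and its genotypes overlapped in CPM (log2 fold change 0.05 ± 0.10 SE; adjusted p = 0.892 by edgeR). Summed over the 5 genes and scaled to library size, KO2 over WT6 was 1.002, with a 95% exact counting interval of 0.955 to 1.05. KO4 over WT8 was 1.21, with an interval of 1.16 to 1.27. Such intervals cover counting error only.

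The delta-1 genes (Pcdh1, Pcdh7, Pcdh9 and Pcdh11x) went both ways and none was called. Pcdh9, a broadly neuronal delta-1 gene, had 342 and 339 reads in KO2 and KO4, against 315 and 218 reads in WT6 and WT8. WT8 was the low library and WT6, at 18.3 CPM, lay just under the KO libraries, at 18.6 and 18.5 CPM (log2 fold change 0.22 ± 0.17 SE; adjusted p = 0.755 by edgeR). Pcdh11x, the other X-linked member, had 139 and 142 reads in the KO libraries, against 158 and 130 reads in the WT libraries. In CPM both KO libraries lay below both WT libraries, with a log2 fold change of -0.18 ± 0.17 (SE; adjusted p = 0.781 by edgeR). Pcdh1 had 1284 and 1273 reads in the KO libraries, against 1114 and 1272 in the WT libraries, with WT8 highest and WT6 lowest in CPM (log2 fold change -0.05 ± 0.11 SE; adjusted p = 0.914 by edgeR). Pcdh7, which binds the phosphatase inhibitor SET, had 352 and 376 reads in the KO libraries, against 348 and 284 in the WT libraries, with overlap in CPM (log2 fold change 0.06 ± 0.14 SE; adjusted p = 0.906 by edgeR). The long RNA 4932441J04Rik overlaps Pcdh7 in the annotation, and it had 23 and 22 reads in the KO libraries, against 15 and 24 reads in the WT libraries.

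The last nonclustered genes have roles outside neuronal adhesion or a less defined place in the family. Pcdh12, an endothelial protocadherin, had 71 and 60 reads in KO2 and KO4, against 73 and 71 reads in WT6 and WT8. Its KO libraries were both below its WT libraries in CPM, with a log2 fold change of -0.28 ± 0.22 (SE; adjusted p = 0.756 by edgeR). The 9 endothelial markers, such as Pecam1 and Cdh5, summed to 163 and 155 CPM in the KO libraries, against 157 and 181 CPM in the WT libraries, and their part in the Pcdh12 values was not tested. Pcdh15, a component of the tip links of inner-ear hair cells, had 48 and 50 reads in the KO libraries, against 34 and 54 reads in the WT libraries. WT6 was its lowest and WT8 its highest library, with a log2 fold change of 0.00 ± 0.33 (SE; adjusted p = 0.999 by edgeR) that turned negative under other normalizations. The inner-ear and eye markers measured, 5 of 7 listed, summed to 46.6 and 52.4 CPM in the KO libraries, against 58.5 and 46.9 CPM in the WT libraries, none at 0, and their part in the Pcdh15 values was not tested. Pcdh20 had 71 and 62 reads in the KO libraries, against 71 and 60 in the WT libraries, with overlap (log2 fold change -0.12 ± 0.23 SE; adjusted p = 0.892 by edgeR).

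**Figure D3:**
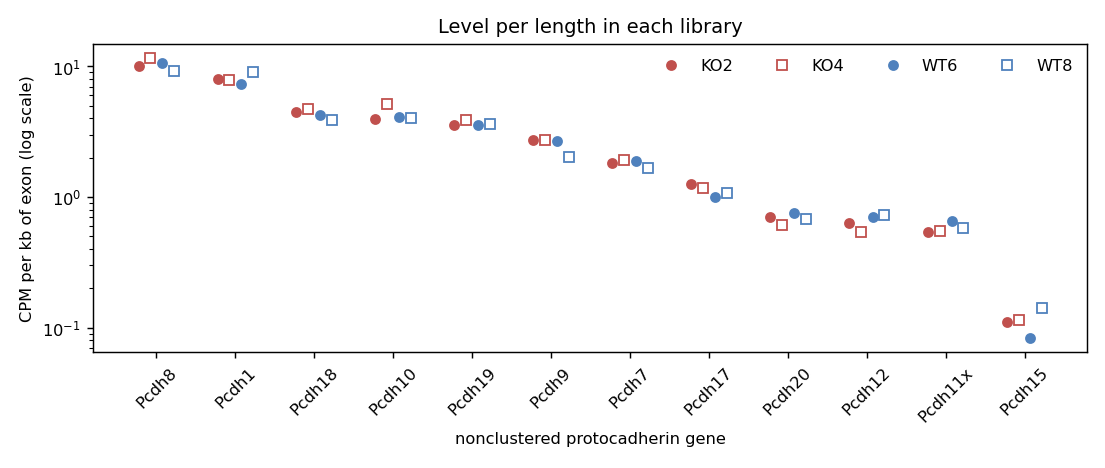
CPM per kb of exon (log axis) of the 12 nonclustered protocadherin genes in each library, in order of the mean (red, KO; blue, WT; filled, the pair KO2 and WT6; open, the pair KO4 and WT8). The means run from 10.4 for Pcdh8 to 0.112 for Pcdh15, and the libraries of Pcdh18 and Pcdh10 overlap in level, as do those of Pcdh20, Pcdh12 and Pcdh11x.

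Promoter sequence was available from RefSeq (GRCm38.p6) for 9 of the 12 nonclustered genes, and 3 that differ in level and in CpG content are shown, CpG methylation being known to act on protocadherin promoters. Each is the 250 bases before the annotated start, 5′ to 3′ in the sense of the gene, with CG dinucleotides in capitals. The first is chr14:79771313-79771562 on the minus strand (Pcdh8), the second chr3:45378148-45378397 on the plus strand (Pcdh10) and the third chr14:88471397-88471646 on the minus strand (Pcdh20).
Pcdh8: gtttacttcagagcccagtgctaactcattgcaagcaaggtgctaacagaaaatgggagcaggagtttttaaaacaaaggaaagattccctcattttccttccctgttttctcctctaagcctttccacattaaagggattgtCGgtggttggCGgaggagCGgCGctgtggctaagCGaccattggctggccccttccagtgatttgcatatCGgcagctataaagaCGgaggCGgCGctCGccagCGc
Pcdh10: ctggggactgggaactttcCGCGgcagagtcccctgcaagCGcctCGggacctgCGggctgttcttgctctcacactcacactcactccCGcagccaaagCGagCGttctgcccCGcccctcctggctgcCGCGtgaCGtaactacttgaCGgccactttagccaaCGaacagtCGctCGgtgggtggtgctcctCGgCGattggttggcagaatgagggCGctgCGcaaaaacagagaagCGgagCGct
Pcdh20: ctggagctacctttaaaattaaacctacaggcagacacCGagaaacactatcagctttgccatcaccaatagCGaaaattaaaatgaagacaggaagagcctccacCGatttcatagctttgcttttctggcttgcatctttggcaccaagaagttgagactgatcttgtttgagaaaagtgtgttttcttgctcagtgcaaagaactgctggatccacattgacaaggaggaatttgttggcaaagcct
The Pcdh8 window holds 11 CG, and 35.6% of 32851 RefSeq windows of this length hold as many or more. The Pcdh10 window holds 22 CG, reached by 14.8% of windows, and the Pcdh20 window holds 3, reached by 71.0%, beside a median of 6. In level per length Pcdh8 was highest at 10.4 CPM per kb, Pcdh10 had 4.33 and Pcdh20 had 0.689, so the order of levels was not the order of CG counts. No methylation was measured.

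In the beta cluster the summed level was similar between libraries, though single genes varied more. Pcdhb10, for one, had 31 and 12 reads in KO2 and KO4, against 11 and 20 reads in WT6 and WT8. The ratio of summed reads, scaled to library size, was 0.989 for KO2 over WT6, with a 95% exact counting interval of 0.899 to 1.09. For KO4 over WT8 it was 1.10, with an interval of 0.994 to 1.21. Pcdhb6 had 29 and 32 reads in KO2 and KO4, against 15 and 16 reads in WT6 and WT8. Both KO libraries stood well above both WT libraries, with a log2 fold change of 0.83 ± 0.35 (SE; unadjusted p = 0.0492 and adjusted p = 0.743 by edgeR). Pcdhb7 had 117 and 114 reads in the KO libraries, against 90 and 81 reads in the WT libraries. Pcdhb3 had 47 and 46 reads in the KO libraries, against 35 and 28 reads in the WT libraries. Neither gene's genotypes overlapped, and the log2 fold changes were 0.29 ± 0.19 for Pcdhb7 and 0.42 ± 0.28 for Pcdhb3 (SE; adjusted p = 0.743 for each by edgeR).

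The lower end of the beta cluster was held by genes with few reads. Pcdhb15 had 16 and 12 reads in KO2 and KO4, against 25 and 19 reads in WT6 and WT8, a log2 fold change of -0.79 ± 0.39 (SE; adjusted p = 0.743 by edgeR) without overlap. Pcdhb16 had 15 and 17 reads in the KO libraries, against 28 and 16 reads in the WT libraries, a log2 fold change of -0.59 ± 0.41 (SE; adjusted p = 0.743 by edgeR). In CPM its WT8 library was close above the KO libraries, and WT6 stood apart. The abundant genes Pcdhb17 and Pcdhb20 varied little: Pcdhb17 had 114 and 118 reads in the KO libraries, against 109 and 96 reads in the WT libraries. Pcdhb20 had 105 and 107 reads in the KO libraries, against 100 and 96 reads in the WT libraries. Their genotypes overlapped in CPM, with log2 fold changes of 0.04 ± 0.18 for Pcdhb17 and -0.03 ± 0.18 for Pcdhb20, the Pcdhb20 sign turning when library totals alone were used. Pcdhb22 was uneven within each genotype, with 71 and 108 reads in the KO libraries, against 111 and 85 reads in the WT libraries (log2 fold change -0.27 ± 0.26 SE; adjusted p = 0.782 by edgeR). Of the 18 tested beta genes, 11 had a positive log2 fold change, beside 48.9% of all tested genes, and 7 a negative one. KO lay above WT without overlap for 4 of the 18, beside 20.1% of all tested genes. KO lay below WT without overlap for 3, beside 19.4%. In the cluster 3 of the 21 genes had too few reads to be tested.

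The gamma cluster went in opposite directions in the deposited pairs. KO2 over WT6 was 0.737 in summed CPM (1209 reads against 1539 before scaling), with a 95% exact counting interval of 0.683 to 0.796. KO4 over WT8 was 1.40 in summed CPM (1646 reads against 1025 before scaling), with an interval of 1.29 to 1.51. All 20 gamma genes had a larger KO over WT ratio for KO4 over WT8 than for KO2 over WT6, beside 51.2% of all tested genes, and 15 of 20 were below 0 on the log2 scale in the male pair and above 0 in the female pair, beside 25.3% of all tested genes. On the log2 scale 17 of 20 were below 0 for KO2 over WT6, beside 49.8% of all tested genes, and 18 of 20 above 0 for KO4 over WT8, beside 50.8%. KO2 was the lowest library for 10 gamma genes and WT8 for the other 10, beside 19.0% and 34.0% of all tested genes. WT6 was the highest for 10, KO4 for 9 and KO2 for 1, beside 23.0%, 25.8% and 18.4%. The genes share exons and libraries, so they are not independent observations, and with 1 library per genotype in each pair the difference between pairs was not tested.

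**Figure D4:**
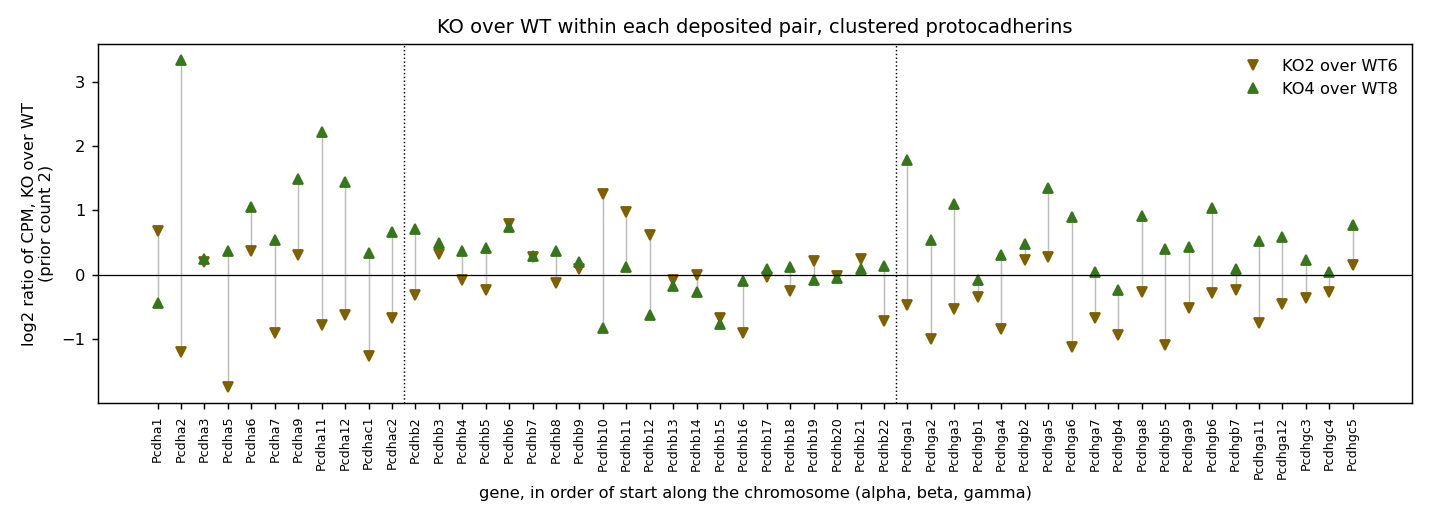
Log2 ratio of CPM, KO over WT, within each deposited pair (prior count of 2) for the 52 clustered genes in order along chromosome 18; downward triangles are KO2 over WT6 and upward triangles KO4 over WT8, and dotted lines separate the alpha, beta and gamma clusters. All 20 gamma genes have the upward triangle above the downward one.

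By subfamily, the ratio of summed CPM, KO2 over WT6, was 0.653 for the gamma A genes, 0.793 for gamma B and 0.801 for gamma C. For KO4 over WT8 it was 1.61 for gamma A, 1.44 for gamma B and 1.17 for gamma C. The C-type genes, which are expressed more uniformly between neurons than the A and B types, gave the following values. Pcdhgc3 had 311 and 361 reads in KO2 and KO4, against 376 and 267 reads in WT6 and WT8 (log2 fold change -0.07 ± 0.17 SE; adjusted p = 0.914 by edgeR). Pcdhgc4, required in mouse for neuron survival, had 103 and 110 reads in the KO libraries, against 117 and 93 reads in the WT libraries (log2 fold change -0.12 ± 0.19 SE; adjusted p = 0.868 by edgeR). Pcdhgc5 had 24 and 31 reads in the KO libraries, against 20 and 15 reads in the WT libraries (log2 fold change 0.51 ± 0.36 SE; adjusted p = 0.744 by edgeR). Genotypes overlapped for Pcdhgc3 and Pcdhgc4, and not for Pcdhgc5. Pcdhgc3 made up 25.7% and 21.9% of gamma reads in the KO libraries, against 24.4% and 26.0% in the WT libraries. The antisense gene BC037039 overlaps Pcdhgc3, and it had 48 and 54 reads in the KO libraries, against 57 and 40 reads in the WT libraries.

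The gamma A and B genes named here differed in the order of their libraries. Pcdhgb6 had 131 and 225 reads in KO2 and KO4, against 149 and 95 reads in WT6 and WT8. KO4 stood apart from the other libraries, with a log2 fold change of 0.41 ± 0.30 (SE; adjusted p = 0.748 by edgeR). Pcdhga12 had 94 and 149 reads in the KO libraries, against 121 and 86 reads in the WT libraries (log2 fold change 0.09 ± 0.27 SE; adjusted p = 0.935 by edgeR). Pcdhga4 had 35 and 43 reads in the KO libraries, against 60 and 30 reads in the WT libraries (log2 fold change -0.34 ± 0.36 SE; adjusted p = 0.799 by edgeR). For both genes the genotypes overlapped, with WT8 or KO2 lowest. Pcdhga7 had 41 and 51 reads in the KO libraries, against 62 and 43 reads in the WT libraries (log2 fold change -0.33 ± 0.29 SE; adjusted p = 0.769 by edgeR). Pcdhga5 had 47 and 41 reads in the KO libraries, against 36 and 13 reads in the WT libraries (log2 fold change 0.71 ± 0.44 SE; adjusted p = 0.743 by edgeR). Pcdhga5 was the gamma gene with KO2 as its highest library, and WT8 was its low one; its log2 fold change was 0.20 without WT8 and 1.55 without WT6. Pcdhgb2 had 54 and 57 reads in the KO libraries, against 43 and 35 reads in the WT libraries (log2 fold change 0.37 ± 0.26 SE; adjusted p = 0.743 by edgeR). Pcdhgb4 had 13 and 22 reads in the KO libraries, against 25 and 23 reads in the WT libraries (log2 fold change -0.60 ± 0.40 SE; adjusted p = 0.743 by edgeR). The genotypes did not overlap for Pcdhga5, Pcdhgb2 and Pcdhgb4, which were named for their small p. Over the cluster, KO lay above WT without overlap for 3 of 20 genes, beside 20.1% of all tested genes. KO lay below WT without overlap for 2, beside 19.4%.

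The alpha cluster had few reads and the same pattern in its sums. Summed over its 11 genes, there were 72 and 129 reads in KO2 and KO4, against 103 and 50 reads in WT6 and WT8. Scaled to library size, the ratio was 0.656 for KO2 over WT6, with a 95% exact counting interval of 0.479 to 0.895. For KO4 over WT8 it was 2.25, with an interval of 1.61 to 3.18. Its 4 tested genes all had the larger ratio in the female pair. Pcdhac2, a C-type isoform that serotonergic axons of the mouse use for tiling, had 16 and 25 reads in the KO libraries, against 25 and 13 reads in the WT libraries (log2 fold change -0.03 ± 0.45 SE; adjusted p = 0.988 by edgeR). Pcdha12 had 9 and 16 reads in the KO libraries, against 14 and 4 reads in the WT libraries (log2 fold change 0.34 ± 0.65 SE; adjusted p = 0.893 by edgeR). Pcdha5 had 3 and 14 reads in the KO libraries, against 14 and 9 reads in the WT libraries (log2 fold change -0.57 ± 0.70 SE; adjusted p = 0.825 by edgeR). In each of these 3 genes the genotypes overlapped, with KO2 the lower KO library and WT8 the lower WT library. Pcdha3 had 20 and 18 reads in the KO libraries, against 16 and 13 reads in the WT libraries, without overlap (log2 fold change 0.25 ± 0.38 SE; adjusted p = 0.864 by edgeR). Pcdhac1, too low to be tested, had 1 and 2 reads in the KO libraries, against 5 and 1 in the WT libraries. At this depth single alpha genes cannot show any but large differences, as their intervals show.

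The authors' deposited table of KO2 against WT6 marks 1 member as higher, Pcdhb10, and 4 as lower, beside 1.31% and 0.543% of all its genes. The 4 are Pcdha5, Pcdhga2, Pcdhgb5 and Pcdhga6. The authors' deposited table of KO4 against WT8 marks 10 members as higher and 0 as lower, beside 2.97% and 2.09% of all its genes. These are the alpha genes Pcdha2, Pcdha9, Pcdha11 and Pcdha12 and the gamma genes Pcdhga1, Pcdhga3, Pcdhga5, Pcdhga6, Pcdhga8 and Pcdhgb6. The alpha marks rest on few reads in KO4 and WT8: 19 and 0 for Pcdha2, 7 and 1 for Pcdha9, 13 and 1 for Pcdha11, and 16 and 4 for Pcdha12. Of these alpha genes only Pcdha12 had enough reads to be tested by edgeR here. Pcdhga6 is marked in both, with a fold of 0.447 for KO2 over WT6 and of 2.01 for KO4 over WT8 in the authors' deposited table. It had 26 and 53 reads in KO2 and KO4, against 55 and 24 reads in WT6 and WT8, so the genotypes overlapped. No test is stated for these marks in the sources used here, and each rests on 1 library per genotype. The marked folds nearest to 1 were 0.493 (Pcdhga2, KO2 over WT6) and 2.01 (Pcdhga6, KO4 over WT8). Some members with folds closer to 1 stayed unmarked at a small adjusted p by the authors' unstated test. For KO4 over WT8 these include Pcdh10 (fold 1.36, adjusted p = 4.28e-13) and Pcdh8 (fold 1.32, adjusted p = 1.2e-07). For KO2 over WT6 their folds were 0.975 and 0.963.

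The summed markers of dorsal telencephalon were higher in KO4 than in KO2 and higher in WT6 than in WT8, as the gamma and alpha sums were. Between KO4 and KO2 the margin was smaller in proportion than in those sums. The 8 markers, Neurod6 the most abundant, summed to 2329 and 2454 CPM in KO2 and KO4, against 3112 and 2247 CPM in WT6 and WT8, highest in WT6 and lowest in WT8. Not all of them did so: Emx1 was at 145 and 137 CPM in the KO libraries, against 194 and 197 CPM in the WT libraries, and Emx2 and Lhx2 were also higher in KO2 than in KO4. The 10 markers of GABAergic and ventral forebrain cells, such as Dlx1 and Gad1, summed to 1250 and 1164 CPM in the KO libraries. In the WT libraries they summed to 752 and 1331 CPM, so that the sums ran in the reverse order. Not every marker did so: Gad2 was at 107 and 110 CPM in KO2 and KO4, and Lhx6 and Gsx2 were highest in KO2. The 5 erythroid markers summed to 564 and 565 CPM in the KO libraries, against 430 and 975 CPM in the WT libraries. The markers of neural progenitors, microglia, meninges and choroid plexus summed to 2606, 28.5, 17.3 and 2.24 CPM in KO2 and to 2492, 25.7, 16.3 and 1.64 CPM in KO4. The same lists summed to 2550, 28.2, 14.2 and 4.01 CPM in WT6 and to 2711, 34.9, 19.5 and 2.69 CPM in WT8. No marker measured in these lists was at 0 in any library and none was called, and the part of these cells in the alpha and gamma values was not tested. Taken as a set, the 31 tested protein-coding genes outside the protocadherins within 1 Mb of the clusters showed no such order. The larger ratio was in the female pair for 15 of 31, and the median difference between pairs was -0.03 on the log2 scale. Genes below 0 in the male pair and above 0 in the female pair were 5 of 31, among them Slc25a2 and Nrg2. This share was under the 25.3% of all tested genes. The opposite signs held for 9 of 31, beside 3888 of all 15708 tested genes.

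Genes that act on the clusters' promoters were measured as a list of 29 (CTCF, cohesin and its loaders and unloaders, DNA methylation and silencing factors), and all 29 were tested. By edgeR 0 were called in either direction, 24 had a positive and 5 a negative log2 fold change, and the median was 0.10, beside -0.01 over all tested genes. The genotypes were separate with KO above WT for 15 of 29, beside 20.1% of all tested genes, and with KO below WT for 3, beside 19.4%. Nipbl, which loads cohesin, had 1020 and 1134 reads in KO2 and KO4, against 874 and 653 reads in WT6 and WT8 (log2 fold change 0.36 ± 0.12 SE; adjusted p = 0.743 by edgeR). Rad21, a cohesin subunit, had 4194 and 4508 reads in the KO libraries, against 3477 and 3211 reads in the WT libraries (log2 fold change 0.24 ± 0.09 SE; adjusted p = 0.743 by edgeR). Tet2, which oxidises methylated cytosine, had 487 and 577 reads in the KO libraries, against 421 and 375 reads in the WT libraries (log2 fold change 0.28 ± 0.13 SE; adjusted p = 0.743 by edgeR). These 3 were picked by the smallest p in the list, which favours genes whose genotypes do not overlap, and none overlapped. WT8 was the lowest library of each, and of 15 of the 29, beside 34.0% of all tested genes.

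Partners of the protocadherin tails and the proteases that cut them formed a list of 32, all tested (the WAVE complex, kinases and phosphatases, bound cadherins, ADAM10 and gamma-secretase). By edgeR 0 were called, 15 had a positive and 17 a negative log2 fold change, and the median was -0.01. Adam10, the protease that sheds protocadherin ectodomains, had 1496 and 1538 reads in KO2 and KO4, against 1241 and 1160 reads in WT6 and WT8 (log2 fold change 0.19 ± 0.08 SE; adjusted p = 0.743 by edgeR). Aph1a, a gamma-secretase subunit, had 1346 and 1362 reads in the KO libraries, against 1411 and 1382 reads in the WT libraries (log2 fold change -0.19 ± 0.08 SE; adjusted p = 0.743 by edgeR). Axin1, a scaffold of Wnt signalling, had 1259 and 1343 reads in the KO libraries, against 1476 and 1239 reads in the WT libraries (log2 fold change -0.20 ± 0.09 SE; adjusted p = 0.743 by edgeR). In CPM the genotypes of each of these 3, picked by the smallest p in the list, did not overlap. Over the list, KO lay above WT without overlap for 7 of 32, beside 20.1% of all tested genes. KO lay below WT without overlap for 7, beside 19.4%.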

How the data were processed

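RNA came from brains of E13.5 mouse embryos, and each library was placed by the genotype in its labels. Tools named in the submitters' processing notes are TopHat2 2.0.12, Bowtie2 2.2.3 and HTSeq 0.6.0, beside the build mm9, without roles. The positions deposited in the tables were identical to GENCODE M21 on GRCm38 for 62 of 64 members and 91.4% of genes in both tables, so GRCm38 is used here. The authors deposited whole-number read counts per gene, not normalized, per the file headers, and beside them normalized values on a CPM scale, the KO over WT fold (ratio) and the log2 of it, plus p-values before and after adjustment. From these, the deposited fold, adjusted p and mark of significance are quoted, always as the authors'.

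The tables were joined on the gene identifier, which left 19150 genes. Genes were tested in R 4.3.3 with the quasi-likelihood F-test of edgeR 4.0.16 on the 4 libraries, with genotype as the only term, TMM scaling, filterByExpr (15708 genes kept) and Benjamini-Hochberg adjustment over them, at a threshold of 0.05. CPM values are scaled by TMM, ratios of single genes within a pair use a prior count of 2, and exact binomial intervals are at 95%. Levels per length use the union of annotated exons. DESeq2 1.42.0, limma-voom (limma 3.58.1), other scalings and filters, the deposited pair as a block and the fit without each library were alternatives. The test was checked on simulated counts.

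The genes named are all nonclustered members and, in each cluster, the C-type genes, the 4 most abundant by CPM and the 3 with the smallest p in each direction, with the 3 smallest p of each list, H2afy and genes the authors marked. Xist, Kdm5d and overlapping antisense genes were added after values were seen. Members, lists and markers were chosen with earlier results of these data known. Pcdha8 is in the KO4 and WT8 table alone, with 4 reads and 3 reads. Pcdhgb8 has another biotype in the tables and falls outside the selection.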

Additional observations from a re-analysis of the deposited data

Results flagged for a closer look

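The alpha and gamma clusters went in opposite directions in the deposited pairs, each of which holds 1 library per genotype. Summed alpha reads, scaled to library size, had a ratio of 0.656 for KO2 over WT6 and of 2.25 for KO4 over WT8. Summed gamma reads, scaled in the same way, had a ratio of 0.737 for KO2 over WT6 and of 1.40 for KO4 over WT8. The difference between the pairs was not tested, since each has no replicate within it, and the pair cannot be told apart from the sex of the embryos. The summed CPM of dorsal telencephalon markers was also higher in KO4 than in KO2, though the 2 were close (2454 against 2329 CPM). It was higher in WT6 than in WT8 (3112 against 2247 CPM). Emx1, Emx2 and Lhx2 were higher in KO2 than in KO4. The part of the dorsal telencephalon markers in the alpha and gamma values was not tested.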

How the results depend on the processing

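Members passed no threshold under any alternative run, where their smallest adjusted p was between 0.314 (Pcdh1, without WT6) and 0.9998 (Pcdha11, DESeq2). Over all genes, calls depended on the setting: DESeq2 called 2 higher and 2 lower, the deposited pair as a block 2 lower, library totals alone 2 lower, and leaving out 1 library gave 0 to 67 higher and 0 to 37 lower, the most without WT8. Of 235 log2 fold changes of single named members recomputed under settings that kept all libraries, 230 kept their direction and side of the threshold. The alpha cluster median was -0.025 at a mean of at least 1 CPM, where 1 alpha gene was left. The log2 fold change of Pcdhb20 was 0.0061 and that of Pcdhac2 0.0071 with library totals alone, and that of Pcdh15 was -0.0056 with DESeq2, -0.0025 with RLE scaling and -0.00031 without a filter on low counts. Without 1 library in turn, where the lone library of a genotype is assumed to vary like the other genotype, 18 of 136 log2 fold changes of single named members changed sign. The median ran from -0.13 to 1.42 in the alpha cluster (1.42 without WT6, where 7 alpha genes passed the filter in place of 4), from -0.057 to 0.087 in the beta cluster (the lowest without WT6, the highest without WT8), from -0.26 to 0.26 in the gamma cluster and from -0.02 to 0.12 in the nonclustered genes. Gene log2 fold changes ran from -0.022 to 0.16 for Pcdh7, -0.027 to 0.36 for Pcdh10, -0.0097 to 0.12 for Pcdh19, -0.19 to 0.11 for Pcdh1, -0.34 to 0.44 for Pcdh15, -0.60 to 0.0079 for Pcdhb22, -0.28 to 0.39 for Pcdhga12, -0.38 to 0.45 for Pcdhac2, -0.25 to 0.13 for Pcdhgc3, -0.034 to 0.75 for Pcdhgb6, -2.03 to 0.15 for Pcdha5, -0.25 to 1.42 for Pcdha12 and -0.71 to 0.18 for Pcdhga4. The cause of these changes was not tested. The genotypes share no replicate numbers; the fit with the deposited pair, which is also the sex of the embryos, as a block called 0 members, with a smallest adjusted p of 0.970 by edgeR. With 2 libraries a genotype and between 50 and 129 alpha reads a library, only large differences could pass and an exact permutation test of a single value cannot reach the threshold of 0.05.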
